A study of Mus musculus with 2 samples.

Results

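RNA of the mouse mitochondrial genome was examined in layer 5 pyramidal neurons, large excitatory cells that send long axons out of the cerebral cortex. The genes were those whose symbol starts with mt-, which are the 13 protein genes, 2 rRNA genes and 22 tRNA genes of the mitochondrial chromosome, and 6 copies of mitochondrial genes on chromosome 1 (Gm29216, Gm28661, Gm10925, Gm28437, Gm28438 and Gm10222). They make 43 of the 43346 genes in the tables. There was 1 group of 2 libraries, labelled biological replicates 1 and 2, each made from 50 pooled neurons that were cut out by laser capture. The mice were wild-type males, 8 months old, of a strain given as B6NCrl, C57Bl5 or C57Bl6 depending on the field. RNA over 200 nt was used, with synthetic spike-in RNAs added. The labels of the samples analysed here give 1 genotype and 1 cell type, without treatment. The labels give each library its own biosample but one donor identifier for both, so whether the pools are separate animals is unclear. The spread between the libraries covers the sampling of cells and technical error, and may not cover differences between animals.

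The tables held 24171434 estimated reads in replicate 1 and 27946180 in replicate 2, of which 4.28% and 5.32% fell on spike-ins. The libraries were not the same library deposited again, since a chi-square per degree of freedom of 56.1 over 16285 genes separated their counts. Markers of other cells were present and differed between the pools. Summed over the 5 interneuron markers the level was 3342 TPM in replicate 1 and 1289 TPM in replicate 2, over the 7 pyramidal neuron markers 2718 and 5267 TPM. The sums were less far apart for the 4 astrocyte markers, at 350 and 411 TPM, the 3 oligodendrocyte markers, at 381 and 486 TPM, and the 2 endothelial markers, at 36.8 and 47.5 TPM. The 3 microglial markers came to 78.6 and 31.1 TPM, and the 2 erythroid markers to 2.67 and 203 TPM. Sst carried most of the interneuron sum, with 2506 and 844 TPM. Pcp4 carried most of the pyramidal neuron sum, and the other 6 pyramidal neuron markers came to 585 and 799 TPM. None of these markers was listed at 0, and the lowest was Vip with 0.03 TPM in replicate 2, against 153 TPM in replicate 1. The part of these other cells in the values below was not tested, and in pooled cells fewer cells of a type and less RNA per cell cannot be told apart. With 2 libraries of 1 group no test between groups was possible, so values are given per library, with the SD over both where a mean is given.

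Mitochondria keep a small circular genome that is transcribed from both strands into long precursors. In mammals the tRNAs lie between most rRNA and protein genes, and cutting them out of the precursor releases the other RNAs, which are then given a poly(A) tail. The protein genes encode subunits of respiratory complexes I, III and IV and of complex V, the ATP synthase, and the remaining subunits of these complexes are products of nuclear genes. Neurons depend heavily on this respiratory chain. Pieces of mitochondrial DNA have also been inserted into nuclear chromosomes, where they are annotated as pseudogenes, and reads from a mitochondrial RNA can match such a copy as well as its source.

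The copies were set against the mitochondrial genes by sequence, since this governs how reads can be divided between them. The pairs were Gm29216 with mt-Co1, Gm28661 with mt-Co2, Gm10925 with mt-Atp6, Gm28437 with mt-Co3, Gm28438 with mt-Nd3 and Gm10222 with mt-Nd4l. In 4 of the 6 pairs the annotated model of the copy was identical to its partner over its whole length and ended before the partner's last bases. These are the 681 bases of Gm28661, 678 of Gm10925, 783 of Gm28437 and 294 of Gm10222. Gm28438 matched 344 of 345 bases of mt-Nd3, with T3C as the only substitution, counted from the first base of the mt-Nd3 model. Gm29216 covers the last 492 of the 1545 bases of mt-Co1, from base 1054 on, and matched 486 of them, with the substitutions T1056A, C1057T, A1059G, A1060G, C1062A and A1066T all within its first 13 bases. The stretches that tell the models of a pair apart are shown for 4 pairs. They come from GENCODE M21 transcripts on GRCm38, in the direction of each gene. Capitals mark the bases of mt-Co3 and mt-Nd4l that lie past the end of the copy model, and in the mt-Co1 and mt-Nd3 pairs the bases that differ.
mt-Co1, chrM:6381-6425, plus strand: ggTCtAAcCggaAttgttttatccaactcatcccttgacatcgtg
Gm29216, chr1:24616153-24616197, minus strand: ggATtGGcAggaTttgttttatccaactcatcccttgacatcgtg
mt-Nd3, chrM:9459-9503, plus strand: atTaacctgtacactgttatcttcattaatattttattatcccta
Gm28438, chr1:24613075-24613119, minus strand: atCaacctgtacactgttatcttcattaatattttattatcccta
mt-Co3, chrM:9346-9390, plus strand: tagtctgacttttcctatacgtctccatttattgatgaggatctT
Gm28437, chr1:24613189-24613232, minus strand: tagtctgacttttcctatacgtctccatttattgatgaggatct
mt-Nd4l, chrM:10129-10173, plus strand: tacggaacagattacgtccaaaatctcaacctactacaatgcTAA
Gm10222, chr1:24612407-24612448, minus strand: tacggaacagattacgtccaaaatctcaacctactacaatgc

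The copies are annotated as unprocessed pseudogenes, and with a further one they form a single block on chromosome 1. That further gene, Gm28439 (chr1:24611535-24612410, minus strand), is outside the 6 named copies and was found by scanning all nuclear transcripts for shared 31-mers. Its 876 bases are identical to the first 876 of mt-Nd4. The block of 7 spans 4663 bases (chr1:24611535-24616197) and runs in the same gene order as chrM:6381-11042. The sum of a copy's end on chromosome 1 and its start on the mitochondrial genome was 24622578 for the copies of mt-Co1, mt-Co2, mt-Atp6, mt-Co3 and mt-Nd3. For the copies of mt-Nd4l and mt-Nd4 it was 24622577, a shift of 1 base between the mt-Nd3 and mt-Nd4l copies. The mitochondrial interval between these genes holds the arginine tRNA gene mt-Tr. The scan, which covered annotated transcripts only, found no copy of mt-Atp8 in the block. The copies of mt-Co2 and mt-Atp6, which flank mt-Atp8, lie 233 bases apart on chromosome 1 and their matching stretches lie 233 bases apart on the mitochondrial genome. The chromosome 1 sequence between the copies was not analysed here.

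Of all reads assigned to genes, the mitochondrial genes held 5.90% in replicate 1 and 5.30% in replicate 2 (5.60% ± 0.42, SD, n = 2). The protein genes held 4.22% and 3.75%, and the rRNA genes held 1.67% and 1.55%. The 6 chromosome 1 copies held a further 2.76% and 2.37%, which is more than the 2 rRNA genes together in both libraries. With the copies the total came to 8.66% and 7.67%. Exact 95% Clopper-Pearson intervals of these shares reached at most 0.0115 percentage points to either side and cover counting error only, since the reads carry no molecular identifiers. They also leave out how reads were divided between the copies and the mitochondrial genes.

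The tRNA genes could not be measured. They are 59 to 75 bases long, and the tables give every entry under 100 bases an effective length of 0 and a count of 0, so all 22 are listed at 0 in both libraries. An entry of this kind shows nothing about the tRNAs themselves. The other 21 genes all had reads, the lowest 452 estimated reads for mt-Nd4l in replicate 1 and the highest 313233 for mt-Rnr2 in replicate 2.

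Levels were compared between genes as TPM, a read density scaled by effective length and by the depth of the library. The protein genes of complex V were highest. mt-Atp8, a small subunit of the membrane part of the ATP synthase, had 14926 TPM in replicate 1 and 11097 TPM in replicate 2. mt-Atp6, the subunit that forms the proton path with the rotor ring, had 11378 and 9589 TPM. Both genes ranked first and second of 13 in both libraries, although their ranges overlapped.

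For complex III, mt-Cytb encodes cytochrome b, which carries the ubiquinol sites of the complex, and it had 7605 and 6995 TPM. For complex IV, mt-Co1, the catalytic subunit with the heme and copper center that reduces oxygen, had 6748 and 7143 TPM. These genes changed places between the libraries. mt-Co2, the subunit that accepts electrons from cytochrome c, had 4868 and 4304 TPM. mt-Co3, which belongs to the core of the complex without carrying a redox center, had 4755 and 3480 TPM, so that mt-Co2 and mt-Co3 overlapped.

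The subunits of complex I, all of them parts of its membrane arm, covered the widest range. mt-Nd1, at the joint with the peripheral arm, had 6403 and 5893 TPM. mt-Nd4, one of the proton-pumping subunits, had 4201 and 3759 TPM. The related subunit mt-Nd2 had 2889 and 2432 TPM. Each of these 3 lay apart from the next within complex I in both libraries.

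mt-Nd6, the only protein gene on the minus strand, had 2075 and 1805 TPM. mt-Nd3 had 1580 and 1042 TPM. mt-Nd5, another proton-pumping subunit, had 1155 and 1087 TPM, within the range of mt-Nd3. mt-Nd4l was lowest by far, with 114 and 116 TPM.

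The highest of the 13 was 131-fold above the lowest in replicate 1 and 95.3-fold in replicate 2. Of the 12 neighbours in the order of mean level, 5 had overlapping values. Whether counting used strand is not given in the sources used here. Without it, reads of mt-Nd6 cannot be told apart from RNA of the opposite strand at the same place. mt-Nd6 shares 14 bases with mt-Nd5, mt-Atp8 shares 43 with mt-Atp6, and mt-Nd4l shares 7 with mt-Nd4.

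**Figure D1:**
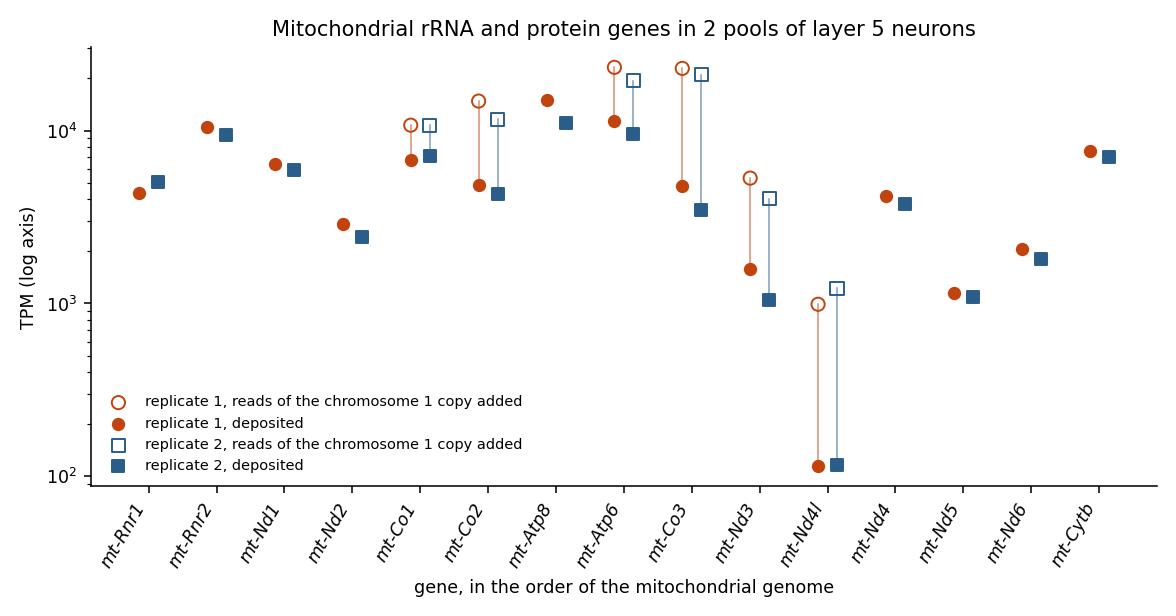
Level in TPM (log axis) of the 2 rRNA and 13 protein genes in genome order, filled symbols as deposited and open symbols with the reads of the chromosome 1 copy added, circles for replicate 1 and squares for replicate 2. mt-Nd4l sits at 114 and 116 TPM as deposited and at 990 and 1223 TPM with its copy, and mt-Co3 moves to 22860 and 20970 TPM.

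The protein genes lay below the rRNA genes at the median. Their median was 4755 TPM in replicate 1 and 3759 TPM in replicate 2, against 7457 and 7236 TPM for the rRNA genes. On log2(TPM + 1) the protein median was lower by 0.51 in replicate 1 and by 0.87 in replicate 2, a difference of -0.69 ± 0.26 (SD, n = 2). With the reads of the copies added to their partners the difference was -0.16 ± 0.10. The rRNA median is the midpoint of 2 genes and did not hold for each. mt-Rnr1 lay below the protein median in replicate 1, with 4376 against 4755 TPM, and above it in replicate 2. With the copies added it lay below in both, with 4376 and 5039 TPM against protein medians of 6403 and 5893 TPM.

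Both rRNA genes had no near-identical nuclear copy in the scan. mt-Rnr2, the rRNA of the large mitochondrial ribosomal subunit, had 10539 TPM in replicate 1 and 9433 TPM in replicate 2. mt-Rnr1, the rRNA of the small subunit, had 4376 and 5039 TPM, lower than mt-Rnr2 in both. Only mt-Atp8 and mt-Atp6 of the protein genes exceeded mt-Rnr2 in both libraries as deposited. How RNA was selected beyond the size limit is not given, and these levels depend on how well each RNA was captured.

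The copies were listed at levels as high as the mitochondrial genes. Gm28437 had 18131 TPM in replicate 1 and 17516 TPM in replicate 2, more than any mitochondrial gene in either library. Gm29216 had 14661 and 13051 TPM, Gm10925 had 11870 and 9826 TPM, and Gm28661 had 9977 and 7335 TPM. Gm28438 had 3770 and 3033 TPM, and Gm10222 had 889 and 1123 TPM. Per length, 6 of 6 copies stood above their partner in both libraries.

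Counts gave the same direction in 5 of 6 pairs, with a median log2 ratio of copy over partner of 1.13 in replicate 1 and 1.14 in replicate 2 (1.14 ± 0.0070, SD, n = 2). This median is the mean of the middle pairs, Gm28661 and Gm28438, which moved in opposite directions between the libraries. The log2 ratio of a single pair differed by up to 0.40 between them. Together the copies held 58.2% of all reads of the 6 pairs in replicate 1 and 57.1% in replicate 2.

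Gm28437 took 248043 estimated reads and mt-Co3 took 65145 in replicate 1, and 268274 against 53377 in replicate 2. The copy's share of the pair was thus 79.2% and 83.4%. The annotated models of this pair differ only by a single final base of mt-Co3, past the end of the copy model, as printed above.

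Gm10222 took 3467 reads against 452 for mt-Nd4l in replicate 1, and 4904 against 516 in replicate 2, which is 88.5% and 90.5% of the pair. Gm28438 took 18547 against 7867 for mt-Nd3, and 16705 against 5812, which is 70.2% and 74.2%. Gm28661 took 116136 against 56956 for mt-Co2, and 95585 against 56373, which is 67.1% and 62.9%. By expected count, most reads of each of these pairs went to the copy.

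Gm10925 took 137459 against 132450 for mt-Atp6, and 127394 against 124964, so that its share was close to even at 50.9% and 50.5%. Gm29216 took 115237 against 195173 for mt-Co1, and 114845 against 231272, which is 37.1% and 33.2%. This last pair is the one whose partner is 1053 bases longer than the stretch it shares with the copy, and per length its direction turned, as given above. Across pairs the share ranged over more than it differed between the libraries, where the SD was at most 2.97 percentage points. Exact 95% intervals for counting error reached at most 1.01 percentage points to either side. They take each read as assigned without error. The quantifier's own uncertainty, given below as a posterior SD, was largest for Gm28437, at 23.7% and 24.0% of the pair count. It was smallest for Gm29216, at 0.0909% and 0.0866%.

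Gm28439 was unlike the other copies. It was listed at 0 reads in replicate 1 and 8.72 reads in replicate 2, against 107454 and 107646 for mt-Nd4. mt-Nd4 continues for 502 bases past the end of this copy, whereas the partners in the pairs with identical sequence continue for 1 to 3 bases. mt-Co1 has 1053 bases before the start of its copy, and Gm29216 took 37.1% and 33.2% of that pair. Why Gm28439 held so few reads was not tested.

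The quantifier's own uncertainty was larger, relative to the count, for each of the 6 protein genes with a named copy than for the other 7. mt-Nd4 is among these 7, although Gm28439 is identical to its first 876 bases. The tables give a posterior SD for each count, which describes how well the reads could be assigned and not the spread between samples. For mt-Co3 it was 74348 reads in replicate 1 and 77129 in replicate 2, or 114% and 144% of the gene's expected count. Percentages of a gene's count are here and below of the expected count. They are not of the posterior mean count, another deposited estimate that is described below. That mean was higher for mt-Co3, at 123172 and 114304 reads, and for mt-Nd4l, at 509 and 856 reads. The deposited TPM interval of this gene ran from 3035 to 18478 in replicate 1 and from 2131 to 15615 in replicate 2, and the level of the interval is not stated in the headers.

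For mt-Co2 the posterior SD was 42.2% and 35.2% of the count, and for mt-Atp6 24.9% and 25.0%. For mt-Nd4l it was 31.5% in replicate 1 but 133% in replicate 2. For mt-Nd3 it was 8.52% and 10.6%, and for mt-Co1, the partner with most substitutions and the longest stretch of its own, 0.145% and 0.130%. The 7 protein genes without one of the 6 copies reached at most 0.0021% in replicate 1 and 0.0042% in replicate 2, both for mt-Nd4.

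The median over the 6 protein genes with a copy exceeded that over the 7 without by 28.2 percentage points in replicate 1 and 30.1 in replicate 2 (29.2 ± 1.35, SD, n = 2). Within every pair the copy and its partner had the same posterior SD to within 0.12 reads. The sum of copy and partner was a whole number, within 0.005 reads, in both libraries for 4 of 6 pairs, namely those of mt-Atp6, mt-Co3, mt-Nd3 and mt-Nd4l, although none of their members was whole on its own. For these pairs the deposited counts divide a whole number of reads between 2 genes.

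The tables also hold a posterior mean count, and it divided the pairs differently. By this estimate the copies held 49.4% of the reads of all pairs in replicate 1 and 48.3% in replicate 2, and 4 of 6 copies had more reads than their partner. Gm10925 fell to 43.2% and 41.9% of its pair, below even, and Gm28437 to 60.7% and 64.5%. Gm28661 fell to 56.6% and 54.3%, with a posterior SD of 13.9% and 13.1% of its pair count. For each of these copies even division lay within 1 posterior SD in both libraries. The shares of Gm29216 were 37.1% and 33.2% by both estimates.

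**Figure D2:**
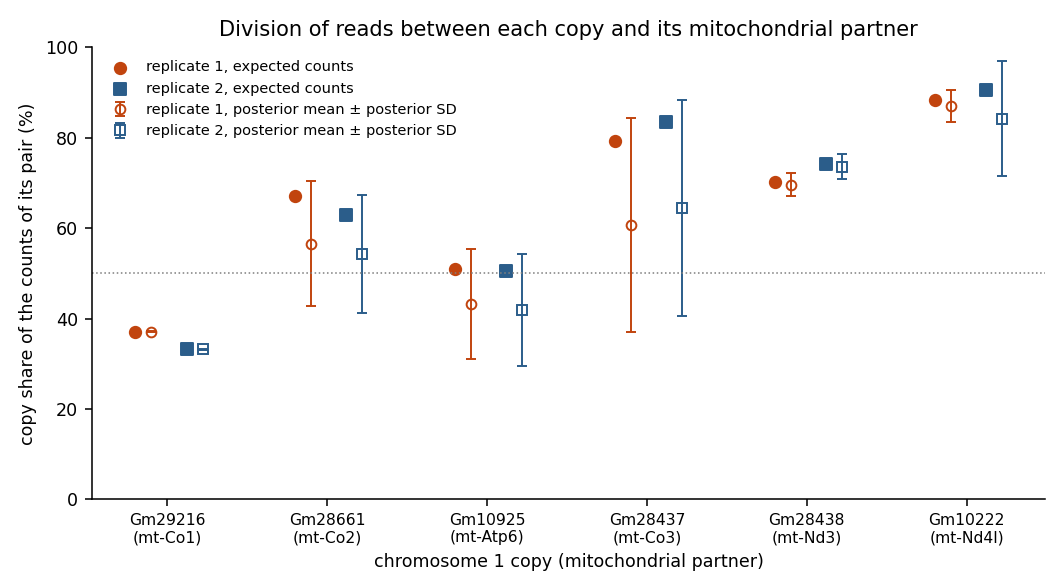
Share of the reads of each pair assigned to the chromosome 1 copy (percent), filled symbols by expected count and open symbols by posterior mean with bars of 1 posterior SD, circles for replicate 1 and squares for replicate 2. Gm29216 has no visible bar at 37.1% and 33.2%, whereas the bars of Gm28437, Gm28661 and Gm10925 cross the dotted line of even division.

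Adding the reads of each copy to its partner changed the order of the protein genes. The factor by which a gene rose lay between 1.59 for mt-Co1 and 8.67 for mt-Nd4l in replicate 1, and between 1.497 and 10.5 for the same genes in replicate 2. mt-Co3 came to 22860 and 20970 TPM, and its rank of 7 and 8 became 2 and 1. mt-Atp6 came to 23187 and 19364 TPM, which overlapped with mt-Co3.

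mt-Co2 came to 14794 and 11600 TPM and overlapped with mt-Atp8. mt-Co1 came to 10733 and 10690 TPM, and mt-Nd3 to 5304 and 4039 TPM. With the copies the 3 genes of complex IV all stood above mt-Cytb, whereas as deposited mt-Co2 and mt-Co3 stood below it. mt-Nd4l came to 990 and 1223 TPM, next to mt-Nd5. The highest gene was then 23.4-fold above the lowest in replicate 1 and 19.3-fold in replicate 2. Neighbours in the order overlapped in 4 of 12 cases.

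In mammals mt-Atp8 and mt-Atp6 are read from one mRNA with overlapping frames, and so are mt-Nd4l and mt-Nd4, which makes the levels within these pairs comparable. mt-Atp8 stood 1.31-fold and 1.16-fold as high as mt-Atp6 in TPM as deposited, and 0.644-fold and 0.573-fold as high once the copy of mt-Atp6 was added. mt-Nd4 stood 36.8-fold and 32.3-fold as high as mt-Nd4l as deposited, and 4.24-fold and 3.07-fold with the copy of mt-Nd4l added. The gap within this mRNA was smaller with the copy, and it remained above 3-fold in both libraries.

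The level of mt-Atp8 also hung on its length. Its model has 204 bases but an effective length of 105, against 681 and 582 for mt-Atp6. In reads per base of the whole model, an order chosen after seeing the data, mt-Atp8 had 154 and 128 reads per base, against 194 and 184 for mt-Atp6, so the direction between them turned.

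The libraries differed little in these genes. Ratios of replicate 1 over replicate 2 were taken on TMM-scaled CPM (counts scaled to a common depth) with 1 added, and 0 of the 21 measured genes lay past 2-fold in either direction, where 4.47% of the 9190 genes at a mean CPM of at least 10 did. With so small a background share, none past 2-fold is not a result particular to these genes. The median log2 ratio over the protein genes was 0.18, against -0.02 over all genes. By TMM 11 of 13 protein genes were higher in replicate 1, while fewer of all genes were higher than lower. The count was 12 with scaling by total gene counts, where the median over all genes was 0.0045. It was 13 with scaling by spike-ins, where the median over all genes was 0.33 and most of them were higher. The central 95% of all genes spanned -0.91 to 1.02, so every measured member lay within it.

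mt-Nd3 had the highest ratio, 0.60 on the log2 scale with a counting interval of 0.55 to 0.65. mt-Co3 followed with 0.45 and mt-Atp8 with 0.43. Counting intervals leave out how well reads could be assigned. The posterior SD was 8.52% and 10.6% of the count for mt-Nd3, and 114% and 144% for mt-Co3. mt-Co1 had -0.08 and mt-Nd4l -0.02, the only protein genes with a ratio below 0, and both turned with spike-in scaling. The counting interval of mt-Nd4l, -0.21 to 0.16, included 0. Among the rRNA genes mt-Rnr2 had 0.16 and mt-Rnr1 -0.20. The copies ranged from -0.33 for Gm10222 to 0.45 for Gm28661. With spike-in scaling, which moved the median of all genes to 0.33, all 21 ratios were above 0, so the negative values hold only relative to the bulk of genes.

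Where a pair was summed, the ratio moved for some genes. For mt-Co3 it was 0.13 with its copy in place of 0.45. For mt-Nd3 it was 0.40, and for mt-Nd4l it was -0.30 in place of -0.02. The libraries were thus closer in the pair sum than in the mitochondrial gene for mt-Co3 and mt-Nd3, and further apart for mt-Nd4l. mt-Atp8, which has no annotated copy, kept 0.43 and was then the highest protein gene. The markers of interneurons and microglia were also higher in replicate 1, and those of red blood cells and 5 of 7 pyramidal neuron markers higher in replicate 2, and their part in these ratios was not tested.

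**Figure D3:**
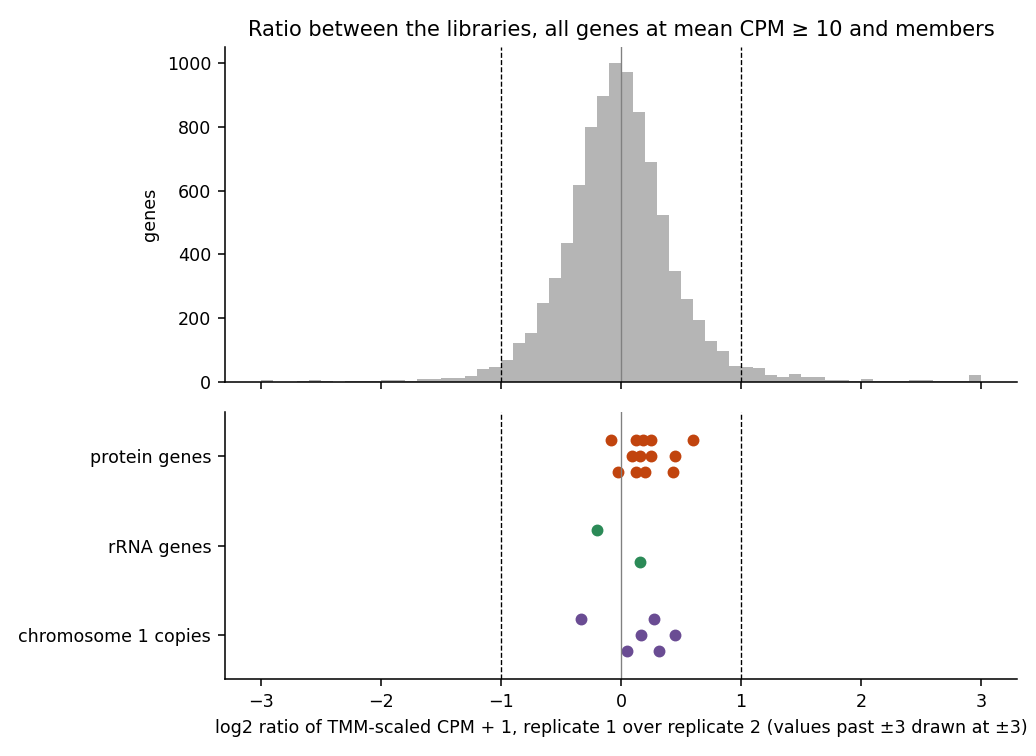
Log2 ratio of replicate 1 over replicate 2 for 9190 genes (upper panel, number of genes per bin of 0.1) and for the 13 protein genes, 2 rRNA genes and 6 copies (lower panel, 1 point per gene, spread vertically for visibility). All 21 points lie between the dashed lines of 2-fold difference, from -0.33 to 0.60.

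Respiratory complexes combine mitochondrial and nuclear subunits, so the 13 mitochondrial protein genes were set against a list of 75 nuclear subunit genes, of which 74 were matched in the tables. The mitochondrial genes were higher at the median, with 4755 TPM in replicate 1 and 3759 TPM in replicate 2, against 939 and 864 TPM for the nuclear genes. The difference of medians on log2(TPM + 1) was 2.34 in replicate 1 and 2.12 in replicate 2 (2.23 ± 0.16, SD, n = 2). A total of 8 of 13 mitochondrial genes stood above the highest nuclear subunit of any complex in each library.

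The gap was largest for complex V, at 3.46 ± 0.08, where the median of 2 mitochondrial genes was 13152 and 10343 TPM, against 1143 and 973 TPM for 18 nuclear genes. In complex III it was 2.96 ± 0.09, with mt-Cytb at the levels given above, against medians of 1017 and 859 TPM for 9 nuclear genes. In complex I it was 1.56 ± 0.09, with 2075 and 1805 TPM for 7 mitochondrial genes, against 670 and 640 TPM for 36 nuclear genes. In complex IV it was 1.16 ± 0.10, with 4868 and 4304 TPM for 3 mitochondrial genes, against 2072 and 2027 TPM for 11 nuclear genes. As deposited the gap of complex IV was the smallest, and its nuclear genes had the highest median. With the copies added to their partners the gap was 2.68 ± 0.23 in complex IV. It was then 2.02 ± 0.13 in complex I, the smallest, and 3.97 ± 0.08 in complex V (all SD, n = 2). Complex III, whose mitochondrial gene has no copy, kept its value.

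The highest nuclear gene of each complex by mean level stayed below the mitochondrial median of that complex. In complex V it was Usmg5, a small membrane subunit of the ATP synthase, with 3627 and 3305 TPM. In complex IV it was Cox8a, with 3580 and 3458 TPM. In complex III it was Uqcr10, with 1751 and 1661 TPM, and in complex I it was Ndufc1, with 1645 and 1602 TPM. Of the 7 mitochondrial genes of complex I, 4 stood above Ndufc1 in each library as deposited. mt-Nd3, with 1580 and 1042 TPM, and mt-Nd5, with 1155 and 1087 TPM, lay below it. As deposited, mt-Nd4l lay below even the lowest of the 36 nuclear genes of complex I, which stood at 131 and 119 TPM. With its copy it lay above their median.

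**Figure D4:**
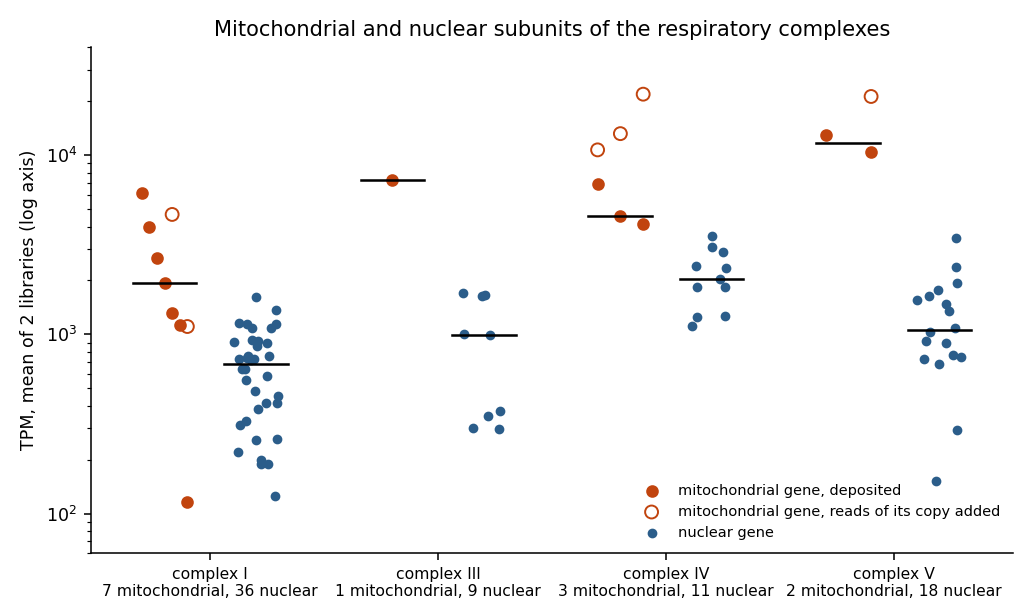
Level of mitochondrial genes (left in each column, filled as deposited and open with the reads of the copy added) and nuclear genes (right) of complexes I, III, IV and V, as the mean TPM of 2 libraries on a log axis, with bars at the medians of the filled points. Mitochondrial genes stand above the nuclear median of their complex in all cases except mt-Nd4l as deposited.

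The mitochondrial genome is expressed and copied by nuclear gene products, and 40 such genes were listed by role. All 40 were matched, and 38 reached 1 TPM in both libraries. Their median was 11.0 TPM in replicate 1 and 12.1 TPM in replicate 2, far below the 4755 and 3759 TPM of the mitochondrial protein genes. Of the protein genes, 12 of 13 stood above the highest of these nuclear genes in each library. Of the 28 with enough reads for a ratio, 0 lay past 2-fold between the libraries, beside the background share given above.

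Of the transcription genes, 9 of 10 reached 1 TPM in both libraries. The highest by mean level were Mterf3, a member of the mitochondrial termination factor family, with 34.8 and 41.6 TPM, and Mterf2 of the same family, with 35.1 and 19.4 TPM. The lowest by mean was Mterf1b, with 2.14 and 0.52 TPM.

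For RNA processing, 14 of 14 were detected. Grsf1, an RNA-binding protein of mitochondrial RNA granules, had 63.1 and 69.5 TPM. Hsd17b10, a subunit of the mitochondrial RNase P, which cuts the 5′ end of tRNAs, had 56.8 and 56.4 TPM. The lowest by mean was Fastkd5, needed in human cells for RNA junctions that lack a tRNA, with 2.45 and 1.77 TPM.

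All 6 genes of RNA stability and decay were detected, and this role held the highest gene of the list. Slirp, which binds and stabilizes mitochondrial mRNAs together with Lrpprc, had 289 TPM in replicate 1 and 251 TPM in replicate 2. Rexo2, an exonuclease that degrades short RNA fragments in mitochondria, had 81.4 and 72.4 TPM. Pde12, which in human cells removes poly(A) tails in mitochondria, had 2.47 and 2.65 TPM. The values of each of these genes differed little between libraries beside the distance between the genes.

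Of the genes of DNA replication and maintenance, 9 of 10 reached 1 TPM in both libraries. Ssbp1, the single-stranded DNA-binding protein of mitochondria, had 78.5 and 56.7 TPM. Atad3a, an inner membrane ATPase that associates with mitochondrial DNA, had 13.6 and 19.9 TPM. Primpol, a primase-polymerase, had 3.42 and 0.19 TPM, which was the lowest of this role by mean but not in replicate 1.

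**Figure D5:**
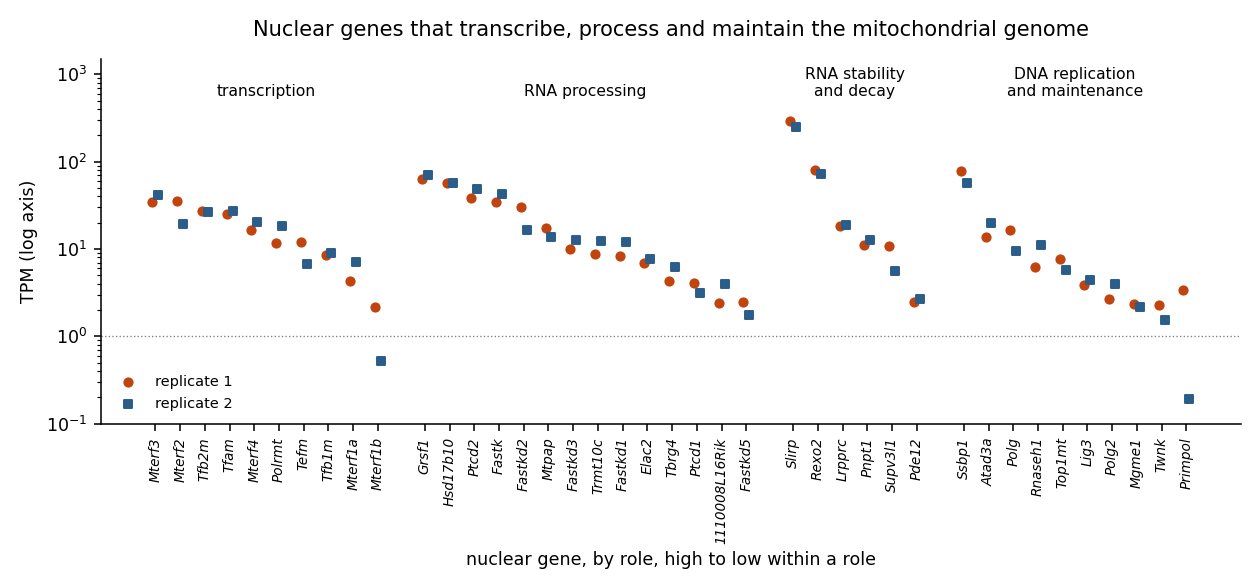
Level in TPM (log axis) of 40 nuclear genes of mitochondrial gene expression, grouped by role and ordered by mean level, circles for replicate 1 and squares for replicate 2, with a dotted line at 1 TPM. Slirp is highest at 289 and 251 TPM, and Mterf1b and Primpol fall below the line in replicate 2.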

How the data were processed

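Members and gene lists were chosen with earlier results of these data known. Per library there is 1 gene table. Its expected count, as deposited, is an estimate of the reads of a gene, without normalization. TPM, which has a fixed sum over the entries of a table, and FPKM were computed by the authors, who also deposited, per the file headers, a posterior mean and SD of each count. Quantification used transcriptome alignments on mm10 (GRCm38) with GENCODE M4, per the authors' deposited text files. Not given in the sources used here are the aligner, the quantifier and the strand setting. Effective length was length less 99 bases. Entries under 100 bases, including all tRNA genes, therefore hold no counts, and the planned difference between protein and tRNA levels was not computed.

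GENCODE M21, also on GRCm38, gave symbols, coordinates and sequences, and 42462 of 43346 gene identifiers matched. File lengths of all 43 members equalled the annotation's. The 97 spike-in and control entries and 26248 entries with numeric identifiers (8.0 and 15.1 counts) were left out of gene totals. Gene counts came to 23137724 and 26460514. Each copy was paired with the mitochondrial transcript sharing most 31-mers and aligned with Biopython 1.88. Pair-summed TPM is the partner's TPM times the ratio of pair count to partner count. Expected counts were rounded and library sizes were adjusted by TMM (edgeR 4.0.16 under R 4.3.3). DESeq2 1.42.0 size factors were an alternative. Ratios are log2((CPM + 1)/(CPM + 1)) at mean CPM of at least 10. Other values came from Python 3.11.15, pandas 2.3.3, numpy 2.4.6 and scipy 1.17.1. On counts simulated from these libraries over 9168 genes, 100% of the changed and 0% of the unchanged genes lay past 2-fold. The planted changes were larger than 2-fold and the simulated counts varied by counting error only. The 6 simulated copies, cut from random sequences unrelated to each other, were paired correctly. These outcomes check the code and show nothing about the spread between real libraries.

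Genes named were all protein, rRNA and copy genes, the 2 highest and the lowest of each role in the list of mitochondrial gene expression, and the highest nuclear subunit of each complex. Ranks in these lists are by mean TPM. Gm28439, Gm13340, Gm13341 and Cep295 came from the scan and were chosen after their values were seen, as were Vip and Sst.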

Additional observations from a re-analysis of the deposited data

How the results depend on the processing

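Of 30 values under other settings, 14 stayed within the spread between libraries or the counting error of the main value. Another 16 moved further, and 0 changed direction. Values of single libraries, which with 2 libraries lie within the SD by construction, are not among the 30. Some of the 30 could not move or turn. Shares cannot be negative, and FPKM differs from TPM by a constant factor within a library. Pairing by 21-mers or 50-mers left copy over partner at 1.14. The filter at a mean of 1 TPM left the nuclear subunit difference at 2.23. The difference between protein and tRNA levels gave no value. No paired analysis was possible because there was only 1 group. The mitochondrial share of 5.60% was 8.17% with the copies added and 8.62% as a share of gene TPM, and it ranged from 5.30% to 5.90% over single libraries. The protein minus rRNA difference of -0.69 was -1.13 as a difference of means, -0.16 with the copies added and -0.23 by posterior mean TPM, the last chosen after seeing the data. The protein minus nuclear subunit difference of 2.23 was 1.94 by means, 2.77 with the copies and 2.69 by posterior mean TPM. Copy over partner, 1.14 in counts, was 1.20 in TPM and, in alternatives chosen after seeing the data, 0.53 by posterior mean counts and 0.89 with Gm28439 added. The gap in posterior SD of 29.2 percentage points was 47.5 by means and 24.9 with mt-Nd4 counted among genes with a copy, which was also chosen after seeing the data. The median ratio between libraries, 0.18 by TMM, was 0.21 by total gene counts, 0.54 by spike-in totals and 0.16 with copies added. The spike-in scaling moved the median of all genes to 0.33 as well, so the protein genes lay 0.20 above it by TMM and 0.21 by spike-ins. At 5 TPM, 28 of the 40 nuclear expression genes were detected in both libraries, against 38 at 1 TPM. Without replicate 1 the count at 1 TPM was 38 and without replicate 2 it was 40.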

Other observations

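In the scan 23 nuclear genes shared a 31-mer with a mitochondrial transcript, and 7 of them, all in the block on chromosome 1, were near identical, with at least 90% of their 31-mers shared. Of the 16 other genes, 12 were in the tables, and 10 of these shared over 1% of their 31-mers. These 10 held 81.6 reads in replicate 1 and 106 in replicate 2. Most of these fell on Gm13340, which shares 45.2% of its 31-mers with mt-Co1 and had 57.9 and 78.3 reads, and on Gm13341, which shares 48.0% with mt-Co2 and had 21.4 and 24.7 reads. Cep295, a gene that shares 4 of its 31-mers with a mitochondrial transcript, held 678 and 514 reads and is outside the 10. Gm13340 and Gm13341 lie next to each other on chromosome 2 (chr2:22588103-22589647 and chr2:22587291-22587962, minus strand, GRCm38) in the same gene order as on the mitochondrial genome. The counts of the mt-Co1 and mt-Co2 pairs, whose partners are shared with these genes, were the only pair sums that were not whole numbers.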
